A study of Homo sapiens with 5 samples.

Results

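The 10 genes described here encode regulators of the mitochondrial pathway of apoptosis: BCL2, BCL2L1, BCL2L2, MCL1, BAX, BAK1, BCL2L11, PMAIP1, BBC3 and BID. They were chosen by name, with earlier results of these data known, and all 10 were found among the 33857 genes of the deposited table, each on 1 row. All 10 also passed the filter on low values and are among the 19232 genes tested.

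Proteins of the BCL2 family decide whether the outer membrane of the mitochondrion stays closed. Pro-survival members (BCL2, BCL2L1, BCL2L2 and MCL1) hold back the effectors BAX and BAK1, which form pores when they are set free, while BH3-only members (BCL2L11, PMAIP1, BBC3 and BID) bind and neutralize the pro-survival proteins or activate the effectors. Human pluripotent stem cells are known for a low threshold to apoptosis, and extra copies of a segment of chromosome 20 (20q11.21) that holds BCL2L1 are a known event in their long-term culture.

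The cells were H9, a human embryonic stem cell line, kept in mTeSR medium on Matrigel and sequenced as poly(A+) RNA. The CFIm25-m group held 3 libraries, 1 from each of 3 clones edited with CRISPR/Cas9 and different guide RNAs near the start codon of NUDT21, the gene of the 3' processing factor CFIm25. The mock control group held 2 libraries, which GEO's labels call control KO and the table names by the cell line alone. The study describes its mock controls as clones that had received the CRISPR/Cas9 vector without a guide, and it was taken, but is not stated for these libraries, that they came from such clones. GEO's labels call the edited clones CFIm25 KO, while the study describes them as knockdown clones that keep a low amount of CFIm25 with a short deletion at its N-terminus. Each edited clone passed through selection and expansion of its own, so an effect of the edit and a difference between the cells picked for the edit and the control cells cannot be told apart.

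NUDT21 had normalized counts of 6503 and 6398 in mock control and 4035, 3281 and 3400 in CFIm25-m and was thus lower in every clone. The libraries held between 18754108 and 23372391 reads assigned to genes. All 12 listed markers of pluripotent stem cells were expressed in every library, with SOX2 between 7227 and 9196. Of these 12 markers, 0 were called by limma and 4 had an unadjusted p under 0.05, 9 estimates were below 0 (median log2 difference -0.20), and 5 were lower in every clone, SALL4 (-0.35), PRDM14 (-0.44), LIN28A (-0.41), NANOG (-0.31) and DNMT3B (-0.33), while 3, POU5F1, TDGF1 and PODXL, were higher in every clone. Of all tested genes, 15.1% had an unadjusted p under 0.05, 19.8% were lower in every clone than in both mock controls and 17.0% were higher. The part of these markers in the members' values was not tested. The 11 germ layer markers in the table summed to between 45.9 and 63.7. The 9 listed fibroblast and blood markers summed to at least 9845 in mock control and to between 7746 and 9249 in CFIm25-m, and 0 of the 5 tested were called by limma, with 3 at an unadjusted p under 0.05. COL1A1 (from 5749 to 8705) was lower in every clone, COL1A2 (from 1107 to 1493) and PDGFRB (from 502.5 to 889.5) were higher in every clone, with log2 differences of -0.42, 0.34 and 0.48. CD34 and LAPTM5 reached at most 22.5 and 15.0, COL3A1 at most 9.65, and DCN, LUM and PTPRC at most 2.31. The shares of all tested genes beside these counts are again 15.1%, 19.8% and 17.0%. The part of the fibroblast and blood markers in the members' values was not tested either. CFIm25-m replicate 3 was the lowest of the 5 libraries for 7 of the 10 members. Over the 12330 genes with a mean normalized count of at least 100, it was also the clone most often lowest (41.8%, against 15.8% and 17.1% for replicates 1 and 2). The normalized counts of all genes summed to 20100000 in replicate 3 and to at least 20790000 in every other library. None of these levels gives the share of dying cells, and fewer cells of a kind and less RNA per cell cannot be told apart in bulk RNA.

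Only 3 members had an unadjusted p under 0.05 in the comparison described next, namely PMAIP1, BAX and BBC3, and the DNA just upstream of their deposited starts is shown here so that their promoters can be read beside their values. The bases come from RefSeq (GRCh38.p14), whose promoter table matched 8 of the 10 members. Each is written 5' to 3' on the strand of the gene and ends 1 base before the start. Capitals mark the E-box CACGTG, read by MYC and its relatives, and the CRE half-site TGACG, read by factors of the ATF and CREB family, each on either strand.
PMAIP1, chr18:59899746-59899947, plus strand: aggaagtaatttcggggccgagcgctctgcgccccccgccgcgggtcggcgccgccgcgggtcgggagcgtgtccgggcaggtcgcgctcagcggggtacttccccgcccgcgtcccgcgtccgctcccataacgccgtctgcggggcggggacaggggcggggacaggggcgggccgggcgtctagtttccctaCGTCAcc
BAX, chr19:48954625-48954814, plus strand: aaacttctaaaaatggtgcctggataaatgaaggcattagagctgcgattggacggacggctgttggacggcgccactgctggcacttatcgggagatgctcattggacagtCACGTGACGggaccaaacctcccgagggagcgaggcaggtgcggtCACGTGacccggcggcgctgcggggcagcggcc
BBC3, chr19:47232767-47232917, minus strand: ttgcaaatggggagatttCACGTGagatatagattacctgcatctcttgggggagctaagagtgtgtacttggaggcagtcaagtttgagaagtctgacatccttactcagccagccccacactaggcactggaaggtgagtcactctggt

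The PMAIP1 sequence had a G and C content of 76.2% and held 1 CRE half-site and 4 copies of the GC box GGGCGG. The BAX sequence held 2 E-boxes and 1 CRE half-site, which overlaps the first E-box. In the whole window of 300 bases around the RefSeq start, BAX had 4 E-boxes and BBC3 had 1, and none of the other matched members had any. A CRE half-site was held in that window by 4 of the 8 matched members (BCL2, BCL2L1, BAX and PMAIP1). A GC box was held by 5 (BAX, BAK1, BCL2L11, PMAIP1 and BID). Over 27305 promoters of that length, 7.43% held an E-box, 25.0% a CRE half-site and 44.6% a GC box. A p53 half-site and the CCAAT box were searched too. Of the 8 matched members, BAK1 alone held a p53 half-site (6.54% of all promoters did). BAX, BAK1, BCL2L11 and BBC3 held a CCAAT box (35.7% of all promoters did). These matches are letters in a window and no measure of binding.

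Of the 10 members, 1 was called higher in CFIm25-m (PMAIP1) and 0 were called lower by limma on log2(normalized count + 1), at a Benjamini-Hochberg adjusted p under 0.05 over all tested genes. Over all 19232 genes, 1.88% were called in either direction, 0.941% higher and 0.936% lower. Without adjustment, 3 of the 10 members had a p under 0.05, against 15.1% of all tested genes. With the values as deposited, the 2 groups did not overlap for 4 members, 1 higher and 3 lower in CFIm25-m. Of all tested genes, 36.8% did not overlap (17.0% higher and 19.8% lower). The median log2 difference of the members was -0.01, as it was over all tested genes, and 5 of the 10 estimates were above 0. For 7 members the 95% interval of the difference lay within 0.5 of 0 on the log2 scale, and the exceptions were PMAIP1, BAX and BBC3.

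**Figure D1:**
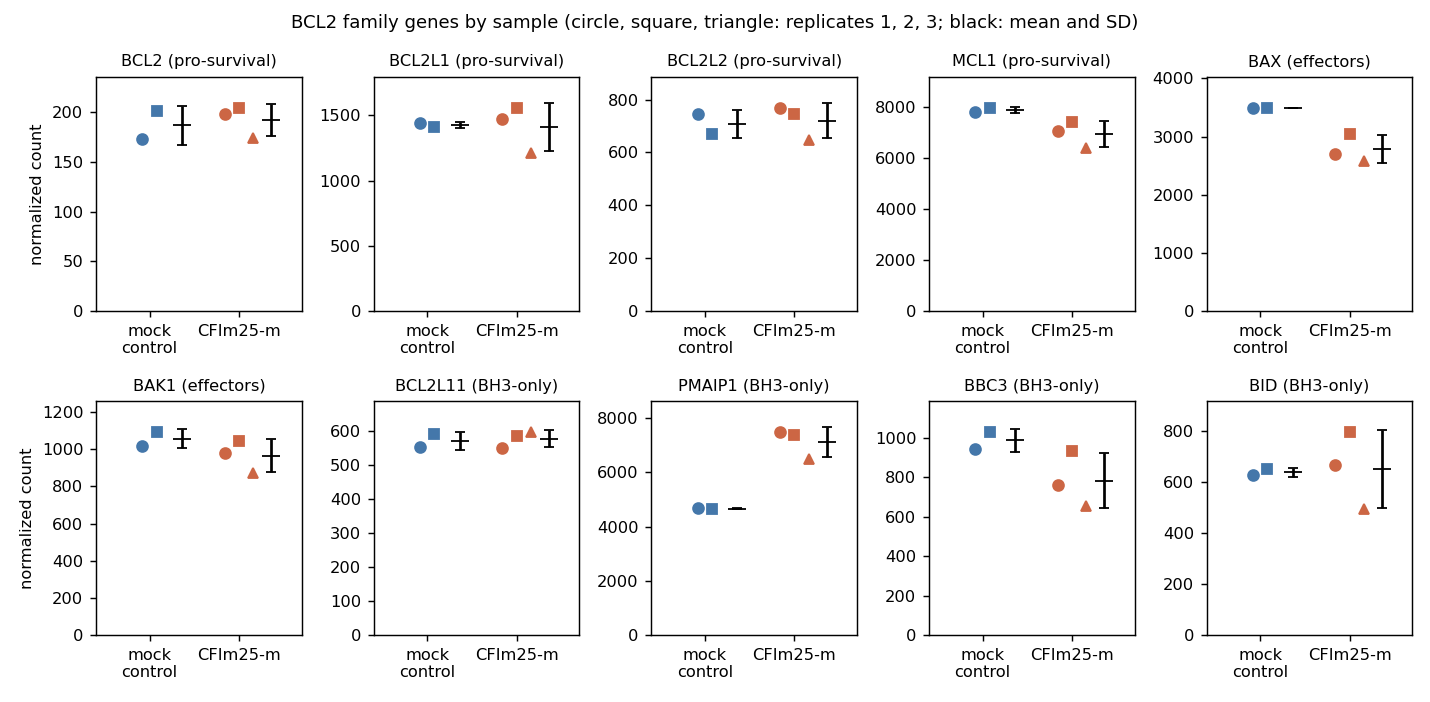
Normalized count (vertical axes, from 0) of each of the 10 genes in the 2 mock control samples (blue) and the 3 CFIm25-m clones (orange), with the mean and SD of each group in black. PMAIP1 lies higher in every clone than in both mock controls, MCL1, BAX and BBC3 lie lower in every clone, and the other 6 genes overlap between the groups.

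PMAIP1 (NOXA), a BH3-only protein that binds MCL1 above all and is a known target of p53 and of the stress factor ATF4, was the sole member called. PMAIP1 (ENSG00000141682, chr18:59899948-59904306, plus strand) had normalized counts of 4686 and 4653 in mock control and 7491, 7364 and 6497 in CFIm25-m. The mock controls were almost equal and every clone was above both, with replicate 3 the lowest of the clones. PMAIP1 rose 1.52-fold (95% interval 1.31 to 1.77), a log2 difference of 0.60 with an SE of 0.10 (limma, adjusted p = 0.0142). With the count-based tests on whole reads recovered from the table, the adjusted p was 0.0111 in edgeR and 1.05e-06 in DESeq2. The call depended on the size of the groups and on the variance model: the log2 difference stayed between 0.57 and 0.67 when each sample was left out, but the limma adjusted p rose to 0.26 without mock control replicate 1, 0.259 without mock control replicate 2, 0.0728 without CFIm25-m replicate 1 and 0.0519 without CFIm25-m replicate 2, and to 0.137 without the mean-variance trend.

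None of the remaining BH3-only members passed the test. BBC3 (PUMA), a further p53 target, which binds all pro-survival members (ENSG00000105327, chr19:47220822-47232766, minus strand), had normalized counts of 942.8 and 1028 in mock control and 760.7, 930.0 and 655.0 in CFIm25-m. The groups did not overlap, but replicate 2 was only just below the mock controls and replicate 3 well below them. As a share of all reads, replicate 2 (1033 of 23372391) was above mock control replicate 1 (818 of 18754108). The separation of the groups for BBC3 thus rests on the deposited scaling. The log2 difference was -0.35 (95% interval -0.67 to -0.03), which did not pass the test (limma, adjusted p = 0.290). BCL2L11 (BIM), induced by FOXO factors and by loss of growth signals (ENSG00000153094, chr2:111119378-111168447, plus strand), had 554.4 and 591.6 in mock control and 551.2, 587.9 and 598.3 in CFIm25-m. These values overlapped in full, with a log2 difference of 0.02 (95% interval -0.22 to 0.26; limma, adjusted p = 0.962). BCL2L11 was the sole member for which replicate 3 was not the lowest clone. BID, which caspase 8 cleaves to link death receptors to mitochondria (ENSG00000015475, chr22:17734138-17774770, minus strand), had 627.0 and 652.4 in mock control and 666.5, 796.8 and 494.4 in CFIm25-m. The clones lay on both sides of the mock controls, and BID had the widest spread of the 10 members among clones, with a coefficient of variation of 23.2% against 2.80% in mock control. Its log2 difference was 0.00 (95% interval -0.39 to 0.39; limma, adjusted p = 0.997).

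The effectors were both estimated lower in CFIm25-m, and neither passed the test. BAX (ENSG00000087088, chr19:48954815-48961798, plus strand), which moves from the cytosol to mitochondria when it is activated, had normalized counts of 3494 and 3497 in mock control and 2704, 3047 and 2587 in CFIm25-m. The mock controls were almost equal and all 3 clones were below them. The log2 difference was -0.33 with an SE of 0.10 (95% interval -0.55 to -0.12), for which limma gave an adjusted p of 0.141. Without CFIm25-m replicate 3, the limma adjusted p was 0.0441, with a log2 difference of -0.28. It was 0.279 without CFIm25-m replicate 1 and 0.0845 without replicate 2. Leaving out replicate 3 also brought more calls over all tested genes (536 higher and 533 lower, against 181 and 180). With either mock control left out, the log2 difference of BAX stayed at -0.33, but its SE rose from 0.10 to 0.16. BAK1, the effector that resides in the mitochondrial membrane (ENSG00000030110, chr6:33572547-33580293, minus strand), had 1019 and 1092 in mock control and 979.2, 1045 and 871.5 in CFIm25-m. Replicate 2 lay between the mock controls and the other clones below them, and the log2 difference was -0.13 (95% interval -0.38 to 0.11; limma, adjusted p = 0.598). The processed pseudogene BAK1P1 was listed at between 8.10 and 18.0, so few reads were counted on it.

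Among the pro-survival members, MCL1 was the one whose groups did not overlap. MCL1, a short-lived protein and the main partner of PMAIP1 (ENSG00000143384, chr1:150574551-150579738, minus strand), had normalized counts of 7812 and 7972 in mock control and 7041, 7408 and 6374 in CFIm25-m. All clones were below both mock controls, and the log2 difference was -0.19 with an SE of 0.10 (95% interval -0.41 to 0.03), which did not pass the test (limma, adjusted p = 0.406). BCL2, the founding member (ENSG00000171791, chr18:63123346-63320128, minus strand), had 172.9 and 200.7 in mock control and 198.4, 204.4 and 174.1 in CFIm25-m. It rested on the fewest reads of the 10 genes, from 150 to 227 in a library, and the log2 difference was 0.04 (95% interval -0.31 to 0.40; limma, adjusted p = 0.927). BCL2L2 (BCL-w; ENSG00000129473, chr14:23298790-23311759, plus strand) had 744.6 and 668.8 in mock control and 769.7, 745.4 and 647.3 in CFIm25-m. The 2 groups overlapped, with a log2 difference of 0.03 (95% interval -0.23 to 0.29; limma, adjusted p = 0.938).

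BCL2L1, whose main product BCL-XL guards stem cells that carry the chromosome 20 gain (ENSG00000171552, chr20:31664452-31723989, minus strand), had normalized counts of 1443 and 1409 in mock control and 1469, 1559 and 1208 in CFIm25-m. Replicates 1 and 2 were above the mock controls and replicate 3 was below them. The log2 difference was -0.02 with an SE of 0.12 (limma, adjusted p = 0.951), and its 95% interval ran from -0.29 to 0.24, or from 0.82-fold to 1.18-fold. The sign of this estimate turned with the scaling: scaled to the total reads of each library, the difference was 0.047.

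**Figure D2:**
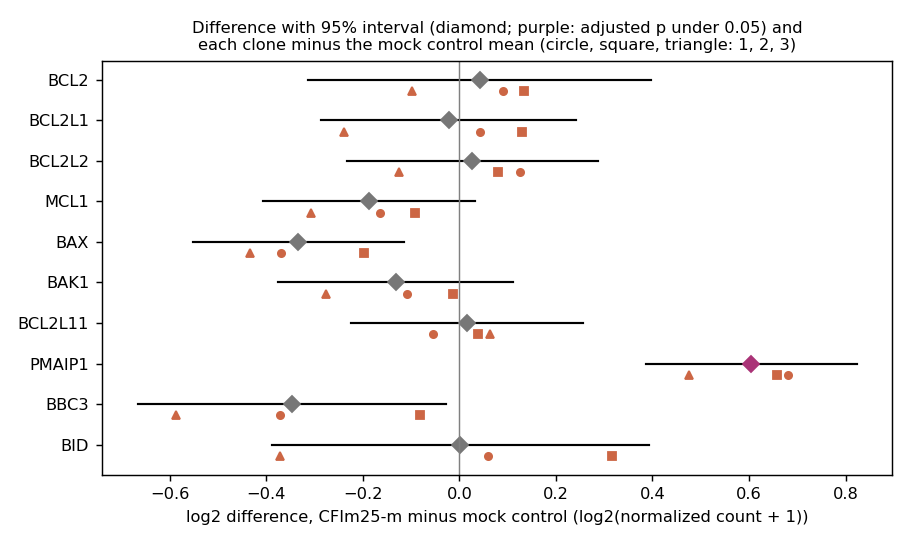
Log2 difference between CFIm25-m and mock control (horizontal axis) for each gene, with its 95% interval (diamond and line) and the difference of each clone from the mock control mean (orange marks). The PMAIP1 interval, from 0.39 to 0.82, lies apart from 0, those of BAX and BBC3 lie below 0 without passing the adjusted test, and the triangle of replicate 3 is the leftmost clone for 9 of 10 genes.

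Replicate 3 was the lowest of the 3 clones for 9 of the 10 members, against 49.5% of the 12330 genes with a mean of at least 100. Replicates 1 and 2 were the lowest for 24.3% and 26.2% of those genes, so the low place of replicate 3 is not particular to the members. PMAIP1 was the sole member for which replicate 3 was the lowest clone and still above both mock controls. A table of gene counts adds up all transcripts of a gene, so the long and short forms of BCL2L1 and MCL1 and the forms of BCL2L11, whose products differ in activity, were not told apart here. The strand setting of the counting is not given in the sources used here, and 7 members overlap another listed gene. The overlapping genes with the highest levels were HOMEZ (from 136.0 to 283.6) and PPP1R3E (from 124.5 to 201.0) at BCL2L2, MIR4435-2HG at BCL2L11 (from 80.2 to 151.0) and ABALON at BCL2L1 (from 35.7 to 43.1), all on the opposite strand. PMAIP1, BAX and BBC3 had no overlapping gene.

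Divided by the length of the gene model in kilobases, the order of the levels was the same in both groups. This length is that of the gene model and not of the transcripts present, so the order between genes is approximate. Before the division, MCL1 was above PMAIP1 in mock control (7892 against 4670) and slightly below it in CFIm25-m (6941 against 7118). PMAIP1 was the most abundant of the 10, with a mean in normalized counts per kilobase of 2089 ± 10.4 in mock control (SD over 2 libraries) and 3185 ± 242 in CFIm25-m (SD over 3). MCL1 followed with 1806 ± 25.9 in mock control and 1588 ± 120 in CFIm25-m, and BAX with 1351 ± 1.05 and 1074 ± 92.3. In mock control, PMAIP1, MCL1 and BAX were each higher than at least 96.9% of the tested genes on this scale. The next level was that of BAK1 (477 in mock control and 436 in CFIm25-m, per kilobase), BCL2L1 (430 and 426) and BBC3 (310 and 246). BCL2L2 (169 and 172), BID (144 and 147) and BCL2L11 (86.1 and 87.0) were lower, and BCL2 was the lowest (15.9 and 16.4), under the level of BCL2L1 by a ratio of 27.3 in mock control. Neighbours in this order were apart in both groups, with 2 exceptions in CFIm25-m, where the clones' ranges overlapped for BAK1 and BCL2L1 and for BCL2L2 and BID.

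Ratios between members within a library do not depend on its scaling and are given as descriptions. The ratio of MCL1 to PMAIP1 per kilobase was 0.852 and 0.876 in mock control and 0.481, 0.514 and 0.502 in CFIm25-m. The 3 clones were thus close to each other and well apart from the mock controls, and replicate 3 lay between the other clones. PMAIP1 made up 80.1% and 78.8% of the summed level of the 4 BH3-only members in mock control and 87.7%, 85.5% and 87.7% in CFIm25-m. The ratio of PMAIP1 to BBC3, both p53 targets, was 7.07 and 6.44 in mock control and 14.0, 11.3 and 14.1 in CFIm25-m. The groups were apart in each of these ratios, which all hold PMAIP1.

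The ratio of BCL2L1 to BAX was 0.322 and 0.314 in mock control and 0.424, 0.400 and 0.365 in CFIm25-m. It was higher in every clone, with replicate 3 the nearest to the mock controls. The summed level of the 2 effectors was 1811 and 1846 per kilobase in mock control and 1488, 1650 and 1394 in CFIm25-m, while the 4 pro-survival members summed to 2415 and 2426 in mock control and 2255, 2361 and 1992 in CFIm25-m. On the deposited scaling, both sums were lower in every clone. The sum of the BH3-only members was higher (2618 and 2641 in mock control against 3824, 3855 and 3314 in CFIm25-m). Unlike the ratios, these sums depend on the scaling and were not taken under another one. The normalized counts of all genes summed to 21620000 and 21680000 in mock control and 20790000, 21040000 and 20100000 in CFIm25-m. MCL1 and PMAIP1 carried most of the pro-survival and BH3-only sums. The ratio of BCL2L1 to BCL2 overlapped between the groups, from 24.9 to 29.6 in mock control and from 24.6 to 27.1 in CFIm25-m.

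**Figure D3:**
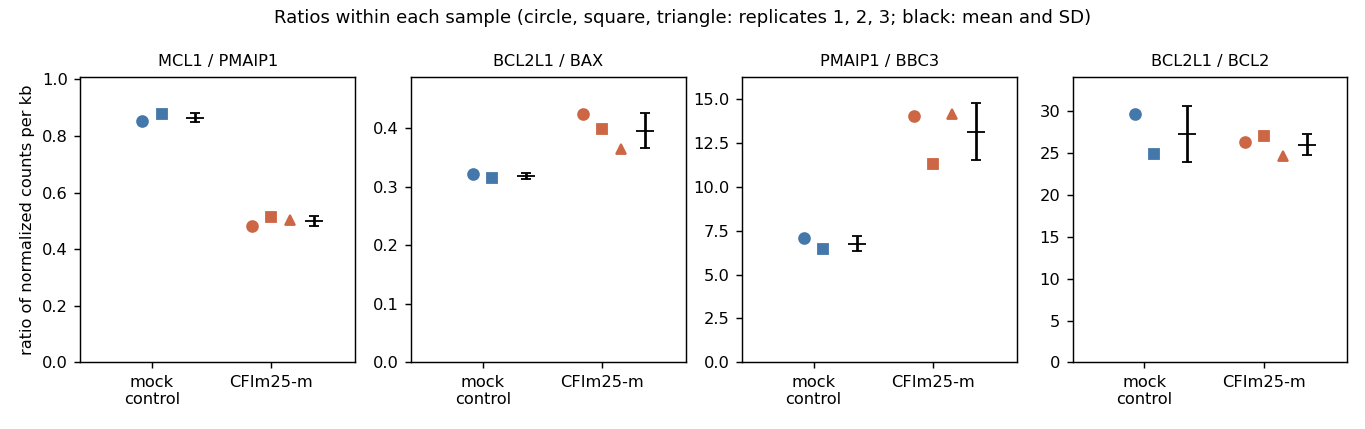
Ratios of normalized counts per kilobase within each library (vertical axes, from 0), for the 2 mock control samples (blue) and the 3 CFIm25-m clones (orange), with the mean and SD in black. MCL1 to PMAIP1 is lower in every clone (0.499 ± 0.0171 against 0.864 ± 0.0167), BCL2L1 to BAX and PMAIP1 to BBC3 are higher in every clone, and BCL2L1 to BCL2 overlaps.

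The other genes of the pathway were taken in 6 lists: further BCL2 family genes, the apoptosome and caspases, IAP genes and their antagonists, regulators of BCL2 family proteins, p53 and its target genes, and stress genes. The list of stress genes mixes inducers of BH3-only genes with other genes of the unfolded protein and stress responses. Of 77 tested genes in these lists, 0 were called by limma, 15 had an unadjusted p under 0.05 (15.1% of all tested genes did), and the groups did not overlap for 6 that were higher and 22 that were lower (17.0% and 19.8% of all tested genes). edgeR also called 0 of the 77 and DESeq2 called 1, PHLDA3.

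Of 16 further BCL2 family genes 11 were tested and 0 were called, with a median log2 difference of -0.09. BNIP2, a BCL2-interacting protein, had the smallest p, with normalized counts of 1345 and 1350 in mock control and 1214, 1079 and 1080 in CFIm25-m (log2 difference -0.26; limma, adjusted p = 0.242). BOK, an effector relative of BAX and BAK1, had 562.5 and 571.3 in mock control and 608.4, 716.6 and 627.1 in CFIm25-m (log2 difference 0.19; limma, adjusted p = 0.453). All 10 genes of the apoptosome and caspase list were tested, with a median of 0.05 and 0 calls, and the smallest p were those of CYCS, cytochrome c (log2 difference -0.13; limma, adjusted p = 0.553), and CASP6 (0.15; limma, adjusted p = 0.581). The list of IAP genes, whose products block caspases, and of their antagonists had 6 tested genes, a median of -0.09 and 0 calls. It was led by BIRC5, survivin (log2 difference -0.25; limma, adjusted p = 0.305), and BIRC6 (-0.16; limma, adjusted p = 0.424). Among 16 regulators the median was -0.07 with 0 calls. HUWE1, a ubiquitin ligase that targets MCL1 for degradation, had a log2 difference of -0.25 (limma, adjusted p = 0.283), and BAG3 one of -0.22 (limma, adjusted p = 0.474).

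The p53 list, which leaves out the members, had 24 tested genes, of which 0 were called. Of its estimates, 19 of 24 were below 0, against 9953 of 19232 over all tested genes, and the median log2 difference was -0.17, against -0.01. For 10 genes every clone was below both mock controls and for 1, MDM4, every clone was above them, against 19.8% and 17.0% of all tested genes. PHLDA3, an inhibitor of AKT signalling, had normalized counts of 1457 and 1565 in mock control and 922.1, 1241 and 1002 in CFIm25-m (log2 difference -0.53; limma, adjusted p = 0.0803). Leaving out CFIm25-m replicate 2 or replicate 3 brought its limma adjusted p to 0.0314 or 0.0438. CCNG1, a p53-induced cyclin, had 9958 and 9917 in mock control and 8461, 7893 and 8045 in CFIm25-m (log2 difference -0.29; limma, adjusted p = 0.168, or 0.0154 without CFIm25-m replicate 3). CDKN1A, which encodes the p53-induced cell cycle inhibitor p21, had 2196 and 2253 in mock control and 1351, 2346 and 1320 in CFIm25-m. Replicate 2 was above both mock controls and the other clones were far below them, so the groups overlapped, and the log2 difference of -0.46 did not pass the test (limma, adjusted p = 0.336). Without CFIm25-m replicate 2, the log2 difference was -0.74 (limma, adjusted p = 0.0144). With other clones left out these genes did not pass: PHLDA3 without replicate 1, CCNG1 without replicate 1 or 2, and CDKN1A without replicate 1 or 3.

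The list of stress genes had the median farthest above 0 of the 6 lists, 0.21 over 10 tested genes, of which 0 were called. Of its estimates, 7 were above 0 and 3 below, with DDIT3 (-0.28) among the latter. Over all tested genes, 9279 estimates were above 0 and 9953 below. FOXO1, a factor that induces BCL2L11, had normalized counts of 1223 and 1243 in mock control and 1534, 1502 and 1790 in CFIm25-m (log2 difference 0.38; limma, adjusted p = 0.117, or 0.0366 without CFIm25-m replicate 3). CHAC1, a target of ATF4, had 268.6 and 267.3 in mock control and 329.7, 572.6 and 373.2 in CFIm25-m (log2 difference 0.62; limma, adjusted p = 0.193). Both were above the mock controls in every clone, while ATF4 itself overlapped, with a log2 difference of 0.06. HSPA5, the chaperone BiP of the endoplasmic reticulum, was lower in every clone (log2 difference -0.22; limma, adjusted p = 0.326, or 0.0208 without CFIm25-m replicate 3). With another clone left out instead, neither FOXO1 nor HSPA5 passed the test. Leaving out replicate 3 also brought more calls over all tested genes.

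Because BCL2L1 lies in a segment that stem cell cultures gain, its neighbours were examined too. Within 1000000 bases on either side of the ends of BCL2L1, 26 other genes were tested, with a median log2 difference of 0.28, against -0.06 over 496 tested genes on the rest of chromosome 20 and -0.01 over all other genes. The median of the neighbours was 0.36, 0.28 and 0.23 in clones 1, 2 and 3, each relative to the mock control mean, and 0.03 for mock control replicate 2 relative to replicate 1. Of the 26 neighbours, 4 were called higher and 0 lower, while 177 and 180 of the 19205 tested genes outside this window were called higher and lower. The groups did not overlap for 12 neighbours that were higher and 4 that were lower, against 17.0% and 19.8% of all tested genes.

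CCM2L, a relative of the vascular adaptor CCM2, showed the largest difference of the 4, with normalized counts of 199.4 and 205.6 in mock control and 387.9, 403.3 and 404.0 in CFIm25-m. All 3 clones were nearly equal, at a log2 difference of 0.97 with an SE of 0.12 (limma, adjusted p = 0.00477). XKR7 had 578.6 and 572.3 in mock control and 957.2, 944.4 and 807.0 in CFIm25-m (log2 difference 0.64; limma, adjusted p = 0.0210). HM13, the signal peptide peptidase, and the pseudogene TSPY26P had log2 differences of 0.42 (limma, adjusted p = 0.0440) and 0.56 (limma, adjusted p = 0.0486). Without mock control replicate 1 or replicate 2, none of the 4 genes passed the test (the adjusted p of CCM2L was 0.104 and 0.0780), and without CFIm25-m replicate 1 or replicate 2 CCM2L alone of the listed chromosome 20 genes did.

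The neighbours of BCL2L1 differed among themselves. Next to it, ID1, an inhibitor of differentiation factors, had 2848 and 2842 in mock control and 2467, 2015 and 2146 in CFIm25-m (log2 difference -0.37; limma, adjusted p = 0.126), and TPX2, a spindle factor, overlapped between the groups with a log2 difference of 0.14. KIF3B, a kinesin motor, also overlapped (0.04), though it lies between POFUT1 (0.39) and ASXL1 (0.42), both above the mock controls in every clone. NOL4L was lower in every clone (-0.35; limma, adjusted p = 0.204). The median depended on the window: it was 0.38 over 19 genes within 500000 bases and 0.084 over 40 genes within 2000000 bases. A gain of DNA was not measured, and the part of copy number in these values was not tested.

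**Figure D4:**
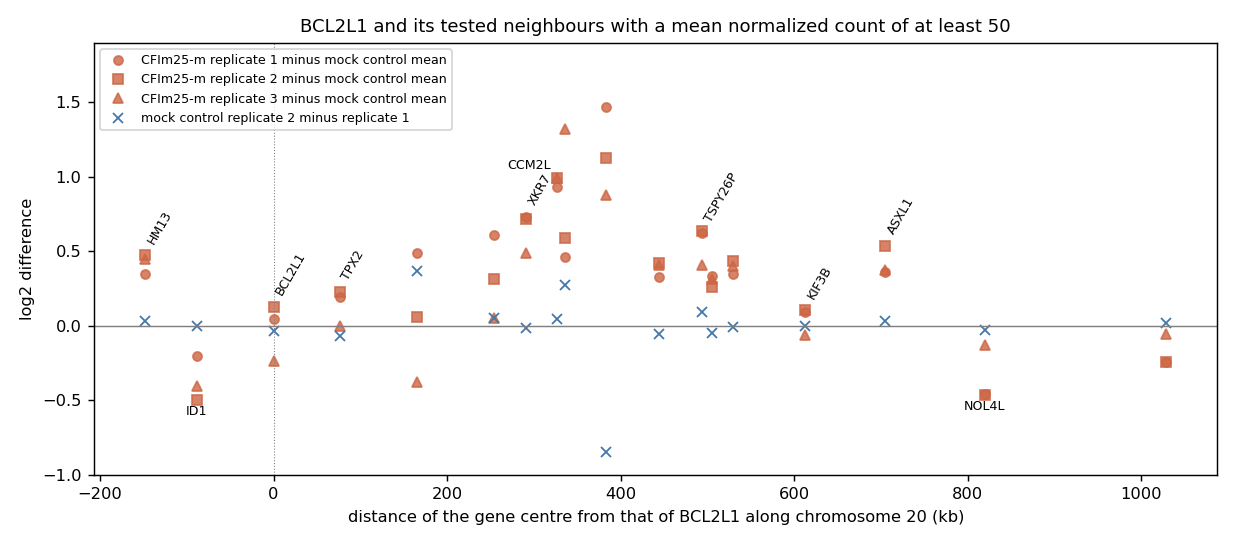
Log2 difference of each CFIm25-m clone from the mock control mean (orange) and of mock control replicate 2 from replicate 1 (blue crosses), for BCL2L1 and its 17 tested neighbours with a mean normalized count of at least 50, by the distance of their centres from that of BCL2L1 in kilobases (horizontal axis). BCL2L1 lies between -0.24 and 0.13 in the clones, and 11 of the 17 neighbours, among them CCM2L, XKR7 and HM13, lie above both mock controls in every clone.

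The same window around the other members gave medians nearer to 0 for most: 0.10 over 12 tested genes around BCL2, -0.03 over 70 around BCL2L2, -0.08 over 59 around MCL1, -0.04 over 92 around BAX, -0.01 over 48 around BAK1, 0.05 over 14 around BCL2L11, -0.13 over 39 around BBC3 and -0.05 over 21 around BID. Around PMAIP1, 5 genes were tested, with a median of -0.21, on the other side of 0 from PMAIP1 itself, and 0 were called by limma.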

How the data were processed

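Poly(A+) RNA-seq of H9 cells was analysed in 2 mock control and 3 CFIm25-m samples, assigned from GEO's labels. The authors deposited 1 table of normalized counts (a signal, in which the reads of a gene are divided by the size factor of their library). The submitters' processing notes name HISAT2, featureCounts, Subread and DESeq2, with no versions, and hg38. The table also holds the authors' group means, log2 fold changes and p-values, which were not used. Gene coordinates are as deposited (GRCh38), and upstream sequences are those of RefSeq GRCh38.p14.

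For each sample, 100% of values were whole multiples of the value of 1 read (tolerance 0.001), which gave the read totals. The main test was limma-trend (limma 3.58.1, R 4.3.3) on log2(value + 1), so the fold changes of low genes are understated. Genes at 10 or more in at least 2 samples were tested (19232), with Benjamini-Hochberg adjustment and a threshold of 0.05. P-values measure the spread within the 2 groups of these samples. Each CFIm25-m library comes from a different clone. Whether the mock control libraries come from separate clones or cultures is not stated, so how far the p-values cover differences between control clones is not known. Alternatives were TMM factors, scaling to total reads, pseudocounts of 0.1 and 5, no filter, a mean of at least 50, limma without trend, leaving out each sample, a replicate block, and, on whole reads, edgeR 4.0.16 and DESeq2 1.42.0. The scripts were tested on simulated data first.

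The members and lists were chosen with earlier results of these data known. Genes named beside the members were the edited gene, in each list the called genes (at most 4, completed to 2 by smallest p), and genes overlapping a member. CDKN1A, MDM4, ZFP42, further cell type markers, HSPA5, ATF4, DDIT3 and further neighbours of BCL2L1 were named after their values were seen.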

Additional observations from a re-analysis of the deposited data

How the results depend on the processing

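The number of calls depended on the variance model and on single samples. Over all tested genes, 181 were higher and 180 lower, against 21 and 25 in limma without trend, 349 and 280 in DESeq2, and from 25 to 536 and from 34 to 533 with each sample left out. Of the members, 1 was called higher, but 0 in limma without trend and from 0 to 1 with a sample left out, and from 0 to 1 were lower (BAX without CFIm25-m replicate 3). Of the other pathway genes, 0 were higher and 0 lower, against 1 lower in DESeq2, and from 0 to 1 higher and from 0 to 3 lower with a sample left out. Of the listed chromosome 20 genes, 4 were higher, against 7 with scaling to total reads, 2 with no filter, 0 in limma without trend, 8 in DESeq2 and from 0 to 11 with a sample left out, and from 0 to 2 were lower (these alternatives for chromosome 20 were chosen after seeing the data). The median of the neighbours of BCL2L1 was 0.28, against 0.38 in the smaller window or with a mean of at least 50, 0.084 in the larger window, and from 0.18 to 0.33 with a sample left out.

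Estimates near 0 changed sign: BCL2L1 became 0.047 with scaling to total reads and 0.00436 in edgeR. With a sample left out, BCL2 lay from -0.065 to 0.15, BCL2L1 from -0.098 to 0.086, BCL2L2 from -0.051 to 0.10, BCL2L11 from -0.031 to 0.062 and BID from -0.16 to 0.19, with none of these 5 called. The sign of PMAIP1, BAX, BBC3, MCL1 and BAK1 was kept under all 15 alternatives. The median over all genes, -0.01 as deposited, was 0.0079 with TMM factors and 0.057 with scaling to total reads.

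Replicate numbers are labels alone: deviations of samples with the same number had correlations of 0.00717 and 0.0180. In a replicate block, CFIm25-m replicate 3 has no counterpart and is fitted exactly. The log2 differences of the block are thus those found without that replicate (0.086 for BCL2L1 and -0.00862 for BCL2L11), and its calls are no separate evidence. The block gave 1043 genes higher and 1064 lower, and 1 member lower (BAX, limma adjusted p 0.00332, besides PMAIP1 higher). Of the pathway genes it gave 5 higher and 6 lower, and of the chromosome 20 genes 11 higher and 3 lower. DESeq2 gave no adjusted p for 1865 genes. BCL2, with 150 to 227 reads, is the member whose level the depth limits most.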
